A study of Mus musculus with 15 samples.

Results

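The comparison set 9 primary mammary tumours grown in BALB/c mice against 6 grown in C57BL/6 mice, which is all 15 tumours of the series. The BALB/c group held 3 tumours each of 67NR, 4T1.2 and EMT6.5, and the C57BL/6 group held 3 tumours each of EO771 and EO771.LMB. Each tumour type is a transplantable mouse mammary carcinoma line implanted in the fourth inguinal fat pad of syngeneic females, labelled as 6 to 8 weeks old, and each tumour came from a different mouse. The labels call 4T1.2, EMT6.5 and EO771.LMB metastatic and 67NR and EO771 non-metastatic. No drug, transgene or knockout separated the groups, and the mice had an intact immune system. RNA of whole tumours was hybridised to Mouse Gene 1.0 ST arrays, and signals are on a log2 scale, so that a difference of 1 is a doubling. A gene was read from its brightest transcript cluster, a transcript cluster being the array's set of probes for a transcript, which gave 22008 genes. Differences are BALB/c minus C57BL/6, with the types of a strain weighted equally.

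Inbred strains differ in immune genes above all: BALB/c carries the d haplotype of the H2 complex and C57BL/6 the b haplotype, and the clusters of natural killer receptors, of interferon-inducible Ifi200 sensors and of Ly6 surface proteins vary in copy and allele between them. A transplanted tumour carries the genome of its line, and its macrophages, vessels and much of its fibroblast stroma come from the host, which here was of the same strain. Each line also has its own history of mutation. 67NR and 4T1.2 go back to the same mammary tumour, 4T1.2 and EMT6.5 are single-cell clones of 4T1 and EMT6, and EO771.LMB was derived from EO771 through lung nodules, so the 5 types are not 5 independent lines. Strain, line and the fit of a strain's sequence to the array's probes, which follow the reference genome of a C57BL/6J mouse, cannot be told apart in this design.

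Tumours of a type correlated at r = 0.983 to 0.989 across 35556 clusters, the types of the BALB/c group with one another at 0.948 to 0.963, EO771 with EO771.LMB at 0.978 to 0.989, and tumours of different strains at 0.920 to 0.944. The correlations run over clusters of the same array and stand as a description. The median signal of an array was 6.39 to 6.44 in the BALB/c group and 6.32 to 6.36 in the C57BL/6 group. Vim, which encodes the filament protein vimentin, was bright in all tumours (12.84 to 13.16 in BALB/c and 12.92 to 13.04 in C57BL/6), whereas Epcam, an epithelial adhesion molecule, was dim in all (5.24 to 6.76 in BALB/c and 5.10 to 6.17 in C57BL/6). Krt8, a luminal keratin, was well above that (9.60 to 10.55 in BALB/c and 10.25 to 10.88 in C57BL/6). No detection values were used, and a signal near 5 was in the lowest 25% of genes (below 5.41) and cannot be told apart from no transcript.

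The 9 BALB/c tumours lay above all 6 C57BL/6 tumours for 1332 genes, 6.05% of the genes measured, and below all 6 for 2204 genes, 10%. Genes that separated the groups in this way were thus more often lower than higher in BALB/c. In limma, 4284 genes were higher in BALB/c (19.5%) and 5151 lower (23.4%) at an adjusted p under 0.05, 42.9% in all, and every separated gene was among them. Of the genes that passed limma, 31.1% of those higher and 42.8% of those lower were separated, so that most calls came from a strain mean with overlapping tumours. Separation by at least 0.5 on the log2 scale between the nearest tumours was found for 382 genes higher and 586 lower in BALB/c, and by at least 2 for 49 and 57. The gap has no lower limit: among genes higher in BALB/c, Arhgap4 was just inside with a gap of 5.4e-04 and Tcf7l2 just outside with a gap of -1.0e-05, and among genes lower, AI747699 was just inside with a gap of 2.8e-04 and AI413582 just outside with a gap of -9.0e-05.

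The 3 BALB/c types agreed, with type means within 0.5 of one another, for 651 of the separated genes higher in BALB/c (48.9%; 2.96% of all genes) and for 1434 of those lower (65.1%; 6.52% of all genes). Genes near that limit were Dapk1 (0.498) and Clec5a (0.5001) among the higher, and Capn1 (0.4998) and Eef1e1 (0.5003) among the lower. Disagreement was wider among genes higher in BALB/c: the range of the type means exceeded 2 for 80 genes higher and 41 lower. Type means have little room to differ where the BALB/c signal is low. All BALB/c tumours were under 6 for 301 of the separated genes lower and for 50 of those higher. The part of signal level in these shares was not tested. EMT6.5 was the type nearest to the C57BL/6 tumours for 540 of the 1332 genes higher (40.5%) and 994 of the 2204 lower (45.1%), against 388 and 627 for 67NR and 404 and 583 for 4T1.2. Taken one type at a time against the same C57BL/6 tumours, 67NR had 3544 genes above (16.1%) and 4600 below (20.9%), 4T1.2 had 3917 above (17.8%) and 4804 below (21.8%), and EMT6.5 had 3325 above (15.1%) and 3892 below (17.7%), at the same threshold.

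Among the genes with agreeing types, H2-Ea differed most. It encodes the alpha chain of the MHC class II molecule I-E, which mice of the b haplotype are known not to make. Its signal was 10.71, 11.63 and 11.81 (lowest, median and highest) in the 9 BALB/c tumours and 4.87, 5.05 and 5.35 in the 6 C57BL/6 tumours. The difference was 6.34 ± 0.18 (SE), or 80.8-fold, with a limma adjusted p of 2.3e-12. Type means were 11.42 ± 0.61 in 67NR, 11.52 ± 0.25 in 4T1.2, 11.32 ± 0.51 in EMT6.5, 5.08 ± 0.25 in EO771 and 5.08 ± 0.12 in EO771.LMB (SD, n = 3 each).

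Of the other 11 agreeing genes at the top of the higher list, Fn1 encodes a matrix protein, Il33 a cytokine and Cgnl1 a junction protein. Fn1, fibronectin, was 12.51 to 12.73 in BALB/c (median 12.67) and 8.67 to 9.34 in C57BL/6 (median 9.21), a difference of 3.53 ± 0.09 (adjusted p = 8.6e-13). Il33, an alarmin cytokine, was 9.11 to 9.85 in BALB/c (median 9.34) and 5.37 to 6.86 in C57BL/6 (median 6.62). The C57BL/6 type means of Il33 were 6.82 ± 0.05 in EO771 and 5.75 ± 0.62 in EO771.LMB, but this difference did not pass (-1.07, limma adjusted p = 0.19). Its BALB/c means lay between 9.21 and 9.47. Cgnl1, a junction protein related to cingulin, differed by 3.04 ± 0.08, and Phldb2, which anchors microtubules at the cell cortex, by 3.16 ± 0.08. Ctse, the aspartic protease cathepsin E, was 7.89 to 9.17 in BALB/c and 5.29 to 6.16 in C57BL/6.

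The remaining genes of that list act inside the cell. Prkar2b, a regulatory subunit of protein kinase A, was 9.73 to 10.33 in BALB/c (median 9.92) and 5.74 to 6.78 in C57BL/6 (median 6.35), or 12.9-fold higher in BALB/c. Xrcc5, the Ku80 subunit of the end-joining DNA repair complex, differed by 3.05 ± 0.10, and its BALB/c type means ran from 9.74 to 10.20 against 6.99 in EO771 and 7.02 in EO771.LMB. Trim44 differed by 3.25 ± 0.09 and Ssbp2, a single-stranded DNA binding protein, by 2.98 ± 0.11. Sycp1, a protein of the meiotic synaptonemal complex, was 7.63 to 8.07 in BALB/c tumours and 4.83 to 5.40 in C57BL/6 tumours. Eno3, the muscle form of enolase, was 9.87 to 10.76 in BALB/c and 7.27 to 7.63 in C57BL/6. Skeletal muscle genes were raised in EMT6.5 tumours 1 and 3 (mean signal over 20 genes 7.67 and 8.22, against 5.57 to 5.82 in the other 13 tumours). Eno3 was above C57BL/6 by 2.79 in 67NR (10.24 ± 0.11), 2.76 in 4T1.2 (10.21 ± 0.32) and 3.18 in EMT6.5 (10.63 ± 0.12). The part of muscle in the Eno3 signal was not tested.

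**Figure D1:**
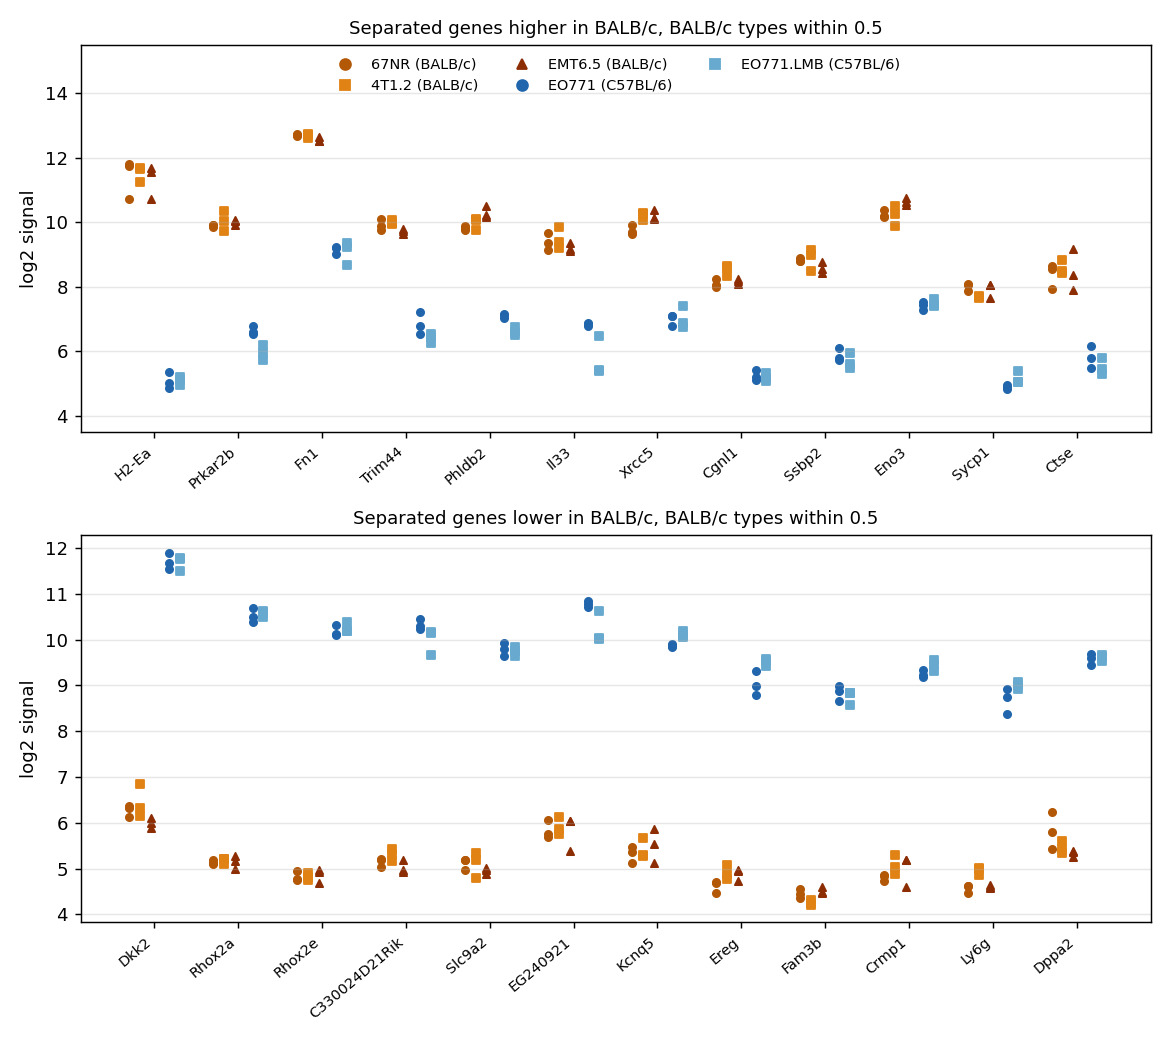
Log2 signal (y axis) of the 12 genes with the largest strain difference in each direction among separated genes whose BALB/c type means lie within 0.5, each point 1 tumour, with BALB/c types to the left of C57BL/6 types within each gene. The strains do not overlap for any gene shown: H2-Ea lies at 10.71 or above in all 9 BALB/c tumours and at 5.35 or below in all 6 C57BL/6 tumours, and Rhox2a at 4.99 to 5.27 against 10.39 to 10.69.

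Among agreeing genes, more of those lower than of those higher in BALB/c differed by over 2 on the log2 scale (78 against 28), and the 12 with the largest differences had BALB/c medians of 4.44 to 6.15. Rhox2a, a homeobox gene of the reproductive cluster on the X chromosome, was 4.99 to 5.27 in BALB/c (median 5.17) and 10.39 to 10.69 in C57BL/6 (median 10.53). The difference of -5.39 ± 0.07 had the smallest limma adjusted p of the named genes (1.5e-15). The BALB/c type means lay within 0.04, at a level that cannot be told apart from no transcript. Rhox2e, a near copy of the same gene, was 4.69 to 4.96 in BALB/c and 10.09 to 10.38 in C57BL/6. The copies are nearly identical, and their signals cannot be told apart. Dppa2 (-4.06 ± 0.10), a gene of pluripotent and germ cells, followed the same pattern, with 5.26 to 6.23 in BALB/c and 9.46 to 9.70 in C57BL/6, and its second cluster differed by -4.38.

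Dkk2, Ereg and Fam3b of that list encode secreted proteins. Dkk2, a secreted modulator of Wnt signalling, was 5.88 to 6.84 in BALB/c (median 6.15) and 11.49 to 11.90 in C57BL/6 (median 11.72), or 44.0-fold lower in BALB/c. Ereg, the EGF receptor ligand epiregulin, was 4.46 to 5.08 in BALB/c (median 4.77) and 8.78 to 9.59 in C57BL/6 (median 9.37), a difference of -4.47 ± 0.09. Fam3b, a secreted cytokine-like protein, differed by -4.38 ± 0.07. Ereg and Fam3b were in the lowest 25% of signals in all 3 BALB/c types, and Dkk2, at 5.99 to 6.44, lay about the median gene (6.34). Channel and transport genes were also in the list: Slc9a2, a sodium and proton exchanger (-4.71 ± 0.08), and Kcnq5, a potassium channel (-4.58 ± 0.11). Crmp1, a protein of axon guidance signalling, differed by -4.38 ± 0.10, and the unannotated transcript C330024D21Rik by -5.00 ± 0.09.

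Ly6g, the surface protein used to mark neutrophils, was 4.47 to 5.01 in BALB/c (median 4.62) and 8.38 to 9.08 in C57BL/6 (median 8.92), a difference of -4.13 ± 0.08. Of 23 genes of the neutrophil list, which holds Ly6g, 9 were higher in BALB/c (against 19.5% of all genes), 4 lower (against 23.4%) and 10 did not pass, with a median difference of 0.12. Mmp8, neutrophil collagenase, was separated lower like Ly6g (-1.43 ± 0.11). Lcn2, lipocalin 2, differed by 1.78 ± 0.22, with 10.32 in 4T1.2 but 6.72 in 67NR and 7.37 in EMT6.5, against 6.82 in EO771 and 5.90 in EO771.LMB.

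Beyond the genes with agreeing types, the largest differences among separated genes higher in BALB/c were those of Ifi202b, Ankrd1, Cp and Gbp1. Ankrd1, a nuclear ankyrin-repeat protein, was 9.83 to 10.97 in BALB/c and 4.87 to 5.44 in C57BL/6. Cp, the copper-carrying ferroxidase ceruloplasmin, was 11.24 to 12.49 in BALB/c and 5.69 to 7.39 in C57BL/6. Gbp1, an interferon-inducible GTPase with close paralogs, was 9.10 to 11.93 in BALB/c and 4.95 to 5.84 in C57BL/6, and its type means spread by 2.41, from 9.35 in 67NR to 11.76 in EMT6.5. Among the lower genes, Slc14a1, a urea transporter, was 5.60 to 6.66 in BALB/c and 11.84 to 12.11 in C57BL/6, and Plxna4, a semaphorin receptor whose types agreed, differed by -3.97 ± 0.08. The transcript ENSMUSG00000073019 differed by -3.98 ± 0.10, but at 9.37 ± 0.05 its 67NR tumours were far from 4T1.2 (6.17 ± 0.17) and EMT6.5 (5.91 ± 0.35).

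A separated gene need not be a property of the strain's lines in common, as the genes with the widest spread among BALB/c types showed. Edil3, a matrix protein that binds integrins, was 5.66 ± 0.15 in 67NR, 8.38 ± 0.07 in 4T1.2 and 10.43 ± 0.07 in EMT6.5, against 4.59 ± 0.01 in EO771 and 4.84 ± 0.18 in EO771.LMB. Its gap between the strains was 0.47, although the strain difference was 3.44. Eya1, a transcriptional cofactor, was highest in 67NR (11.45 ± 0.20) and lowest in EMT6.5 (7.48 ± 0.11), and Sema5a and Pcdh18 were highest in 67NR and lowest in 4T1.2. Among genes lower in BALB/c, Ass1, the urea-cycle enzyme argininosuccinate synthase, was 6.53 ± 0.07 in 67NR but 9.79 ± 0.06 in 4T1.2 and 10.47 ± 0.16 in EMT6.5, against 10.97 ± 0.10 in EO771 and 10.99 ± 0.12 in EO771.LMB. Morc1, a germ cell gene, was near the floor in 67NR (4.28) and 4T1.2 (4.48) and was 8.75 in EMT6.5, 0.21 below the nearest C57BL/6 tumour at the closest point. Nxf3 and Ociad2 spread by 5.19 and 4.08.

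**Figure D2:**
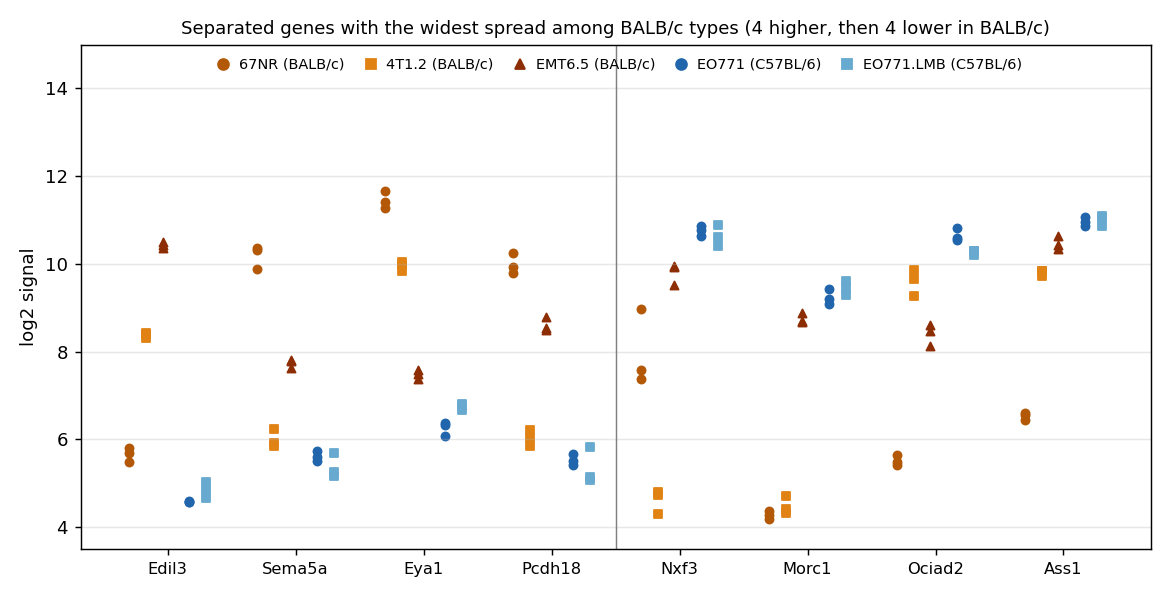
Log2 signal (y axis) of the 4 separated genes higher and the 4 lower in BALB/c whose BALB/c type means differ most, each point 1 tumour, BALB/c types left of C57BL/6 types. The strains do not overlap, yet Edil3 runs from 5.66 (67NR) to 10.43 (EMT6.5) and Ass1 from 6.53 (67NR) to 10.47 (EMT6.5) among the BALB/c type means.

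Interferon-induced genes were lower in BALB/c as a group. Type I interferons act through the transcription factor complex ISGF3, which binds a repeated GAAA element in the promoters of antiviral genes. Of 54 listed genes, 44 were lower in BALB/c, 2 higher and 8 did not pass, with a median difference of -0.88, against 23.4% of all genes lower and a median of 0.02 over all genes. All 9 BALB/c tumours lay below all 6 C57BL/6 tumours for 26 of them (against 10% of all genes). Ifit1, an antiviral RNA-binding protein, was 7.33 to 8.37 in BALB/c (median 7.66) and 10.33 to 10.93 in C57BL/6 (median 10.58), a difference of -2.93 ± 0.13, and its BALB/c types agreed (range 0.49). Rsad2, the antiviral enzyme viperin, was 6.24 to 8.09 in BALB/c and 9.84 to 10.33 in C57BL/6. Ifit3 was 8.15 to 9.34 in BALB/c and 10.89 to 11.38 in C57BL/6.

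The mean signal over the 54 genes was 8.30 to 9.08 in BALB/c tumours and 9.39 to 9.76 in C57BL/6 tumours, with no overlap. The BALB/c types were unequal: the median difference was -1.29 for 67NR, -0.43 for 4T1.2 and -1.03 for EMT6.5, all against the same C57BL/6 tumours. H28, a gene of the Ifi44 family named Ifi44l in RefSeq, went the other way, with 8.30 to 9.79 in BALB/c (median 8.75) and 5.14 to 5.69 in C57BL/6 (median 5.60). Ifitm1, named here because it was the only other member higher in BALB/c, differed by 0.95 ± 0.12, its tumours overlapped, and 67NR (8.53) was near EO771 (8.57). The related interferon GTPases had no common direction, with 6 of 14 higher and 4 lower (against 19.5% and 23.4% of all genes) and a median of -0.05.

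The promoters of the 3 lower genes with the largest differences, and that of H28, are given to show the element that the group is known for. They are RefSeq sequences of GRCm38.p6, from 250 bases before to 50 bases after the transcription start, 5′ to 3′ on the gene's strand, and capitals mark each match to GAAA followed after any 2 bases by GAAA, or to the reverse complement of that pattern. Ifit1 is at chr19:34640639-34640938 (plus strand), Rsad2 at chr12:26456403-26456702 (minus strand), Ifit3 at chr19:34583279-34583578 (plus strand) and H28 (Ifi44l) at chr3:151762842-151763141 (minus strand).
Ifit1: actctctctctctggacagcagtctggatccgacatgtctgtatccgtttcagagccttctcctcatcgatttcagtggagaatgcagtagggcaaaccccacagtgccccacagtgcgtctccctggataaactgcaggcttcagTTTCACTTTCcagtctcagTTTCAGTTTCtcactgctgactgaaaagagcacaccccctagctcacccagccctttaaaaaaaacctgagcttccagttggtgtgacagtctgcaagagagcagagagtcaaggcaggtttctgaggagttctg
Rsad2: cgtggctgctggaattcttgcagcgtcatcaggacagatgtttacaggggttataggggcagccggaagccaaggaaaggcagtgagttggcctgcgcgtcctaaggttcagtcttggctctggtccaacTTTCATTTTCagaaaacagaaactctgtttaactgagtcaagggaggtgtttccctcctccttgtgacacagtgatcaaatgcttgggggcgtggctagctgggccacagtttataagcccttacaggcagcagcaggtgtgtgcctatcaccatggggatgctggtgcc
Ifit3: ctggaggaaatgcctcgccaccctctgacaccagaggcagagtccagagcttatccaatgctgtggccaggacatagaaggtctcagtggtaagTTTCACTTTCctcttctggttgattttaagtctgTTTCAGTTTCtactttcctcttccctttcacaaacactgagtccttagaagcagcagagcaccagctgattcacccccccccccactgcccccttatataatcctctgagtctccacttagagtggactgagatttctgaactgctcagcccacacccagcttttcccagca
H28: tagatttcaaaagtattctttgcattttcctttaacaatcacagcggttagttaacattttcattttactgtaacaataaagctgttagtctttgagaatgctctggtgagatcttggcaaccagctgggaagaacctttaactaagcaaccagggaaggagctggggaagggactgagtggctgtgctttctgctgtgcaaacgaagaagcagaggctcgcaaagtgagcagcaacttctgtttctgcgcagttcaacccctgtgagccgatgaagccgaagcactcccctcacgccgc
Ifit1 and Ifit3 have 2 matches each, Rsad2 has 1 and H28 has 0. Of the 54 genes, 40 matched a RefSeq promoter, and 19 of these (47.5%) held the motif, against 943 of 27025 promoters in all (3.49%). Among the 19 interferon-induced genes with a promoter that were separated lower it was in 11 (57.9%), and among the other 21 in 8 (38.1%). Over all separated genes the motif was no more frequent than in promoters at large, with 37 of 1006 promoters of genes higher in BALB/c (3.68%) and 60 of 1698 of genes lower (3.53%). A match is a stretch of letters and not a shown binding site, and the sequences are those of the reference strain.

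Of the 12 genes measured from a list of known strain differences, 3 were higher in BALB/c (against 19.5% of all genes), 6 lower (against 23.4%) and 3 did not pass. Ifi202b, a DNA sensor of the Ifi200 family known for low expression in C57BL/6, was 10.03 to 11.33 in BALB/c and 4.97 to 5.22 in C57BL/6, a difference of 5.61 ± 0.10. Its neighbours of the same family were lower instead: Aim2, the inflammasome DNA sensor (-2.26 ± 0.12), Pyhin1 (-2.71 ± 0.19), Ifi205 (-2.09 ± 0.14) and EG240921 (named Ifi206 in RefSeq; -4.64 ± 0.13). In the list of Ifi200 and NLR sensors 10 of 16 genes were lower (against 23.4% of all genes), and Ifi202b was the only one higher. These genes have close paralogs, and cross-hybridisation between them was not tested.

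Nnt, the mitochondrial transhydrogenase that is partly deleted in the C57BL/6J substrain, was 9.74 to 10.63 in BALB/c and 8.74 to 9.10 in C57BL/6, a difference of 1.29 ± 0.08, but its second, dimmer cluster differed by 0.20 (adjusted p = 0.032) and did not separate the strains. Ligands of the activating receptor NKG2D went in opposite directions, as Raet1d was 6.86 to 8.19 in BALB/c and 11.33 to 11.76 in C57BL/6 (-4.14 ± 0.11), and Raet1b was 8.62 to 10.44 in BALB/c and 7.35 to 8.74 in C57BL/6 (1.53 ± 0.13). The Ly6 surface proteins were lower: Ly6c1 by -2.54 ± 0.11, Ly6c2 by -2.34 ± 0.10 and Ly6a, also called Sca-1, by -2.18 ± 0.18, all 3 separated. Differences were small for Klrb1c, which carries the NK1.1 epitope in C57BL/6 (-0.34 ± 0.10), for the DNA repair kinase Prkdc (-0.21 ± 0.06) and for the B cell coreceptor Cd72 (0.34 ± 0.11, adjusted p = 0.028). Klrb1c was near the floor in both strains (4.14 to 4.84 in BALB/c, 4.80 to 5.01 in C57BL/6), where a signal cannot be told apart from no transcript. Without 4T1.2, Prkdc differed by -0.03 (limma adjusted p = 0.76) and Cd72 by 0.15 (adjusted p = 0.45). Hbb-b1, a beta globin (-0.63 ± 0.31, adjusted p = 0.14; its second cluster passed, at -0.89 with an adjusted p of 0.040), Pla2g2a, a secreted phospholipase (0.12 ± 0.08), and Cdkn2a, the locus of p16 and p19Arf (0.01 ± 0.09), did not pass, and the last 2 were near the floor in both strains (5.15 to 5.74 and 5.14 to 5.72 in BALB/c, 5.18 to 5.52 and 5.14 to 5.57 in C57BL/6).

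Within the H2 complex the directions were mixed. Classical class I genes, which present peptides to CD8 T cells, were lower: H2-K1 was 8.19 to 8.84 in BALB/c and 9.82 to 10.36 in C57BL/6 (-1.52 ± 0.07), and H2-D1 was 9.30 to 10.28 in BALB/c and 10.47 to 10.76 in C57BL/6 (-0.91 ± 0.07). By contrast H2-gs10 (2.19 ± 0.13) and H2-Q6 (1.13 ± 0.15) were higher, though H2-Q6 in 67NR (8.37) was near EO771 (8.19). Of the 25 class I genes and their processing machinery, 10 were higher (against 19.5% of all genes), 7 lower, near the 23.4% of all genes, and 8 did not pass. In class II, H2-DMa, which loads peptide, was 8.79 to 9.63 in BALB/c and 6.43 to 8.31 in C57BL/6, and the invariant chain Cd74 differed by 1.58 ± 0.20, whereas the I-A beta chain H2-Ab1 was 6.81 to 8.97 in BALB/c and 8.89 to 10.56 in C57BL/6 (-1.62 ± 0.25). H2 alleles differ in sequence between the haplotypes, and a lower signal and a poorer match to the probes cannot be told apart. Of the natural killer receptor genes, 12 of 24 were lower and 0 higher (against 23.4% and 19.5% of all genes). Klra2 (-1.30 ± 0.21) and Klra6 (-1.27 ± 0.08), Ly49 receptors, were separated, as was Klra10 (-1.08 ± 0.15), and the genes have many copies that differ between strains. Of 36 T and NK cell genes 4 were higher and 6 lower, both below the shares over all genes (19.5% and 23.4%). None was separated, against 6.05% of all genes separated higher and 10% lower.

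Macrophage genes were higher in BALB/c tumours. Of 31 genes, 24 were higher (against 19.5% of all genes), 1 was lower and 6 did not pass. The median difference was 1.07, and 16 were separated higher (against 6.05% of all genes). Cd163, a scavenger receptor for haemoglobin complexes, was 7.17 to 10.40 in BALB/c (median 8.78) and 5.04 to 5.99 in C57BL/6 (median 5.76). Cx3cr1, the fractalkine receptor, was 8.45 to 9.70 in BALB/c and 5.75 to 6.28 in C57BL/6, a difference of 2.92 ± 0.12. Csf1r, the receptor for the growth factor that macrophages depend on, differed by 2.30 ± 0.13, and Apoe, a lipid carrier that macrophages and other cells make, by 2.87 ± 0.13. The one lower member was Gpnmb, a glycoprotein of lipid-laden macrophages and of some tumour cells (-1.73 ± 0.16), named after its value was seen, with 5.37 to 8.45 in BALB/c and 7.87 to 8.79 in C57BL/6, and 4T1.2 (8.22) against C57BL/6 did not pass (-0.15, adjusted p = 0.62).

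The macrophage list was ordered by line. Its mean signal was 8.62 to 9.71 over the BALB/c tumours and 7.99 to 8.32 over the C57BL/6 tumours, and the median difference was 1.41 for 67NR, 0.91 for 4T1.2 and 0.53 for EMT6.5. Of the 31 genes, 4 were separated higher with agreeing types, against 2.96% of all genes. In RNA of whole tumours, fewer cells of a type and less RNA per cell cannot be told apart, here and in the lists that follow. The B cell, adipocyte and erythroid lists had medians of -0.27, 0.11 and -0.09, and most of their genes did not pass (12 of 15, 13 of 20 and 9 of 12). Their part in the other differences was not tested.

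More stromal genes were higher than lower. Of 53 fibroblast and matrix genes 31 were higher (against 19.5% of all genes) and 13 lower, which is near the 23.4% of all genes, with a median of 0.55, and the mean signal was 8.12 to 8.92 in BALB/c and 7.86 to 8.02 in C57BL/6. Ogn, the small proteoglycan osteoglycin, was 9.24 to 12.64 in BALB/c and 6.17 to 6.97 in C57BL/6 (4.12 ± 0.09), and its 67NR tumours (12.55 ± 0.08) were above 4T1.2 (9.41 ± 0.17) and EMT6.5 (10.01 ± 0.20). Col8a1, a short-chain collagen, differed by 2.69 ± 0.11. Col6a3, the alpha 3 chain of collagen VI, ran the other way (-2.61 ± 0.13), with 6.96 to 9.07 in BALB/c and 10.51 to 11.06 in C57BL/6. Of the 16 pericyte and smooth muscle genes 11 were higher and 0 lower (against 19.5% and 23.4% of all genes), among them Abcc9 (1.29 ± 0.10), Rgs5 (1.16 ± 0.10) and Mcam (1.09 ± 0.07), which were separated (the second cluster of Rgs5, at 0.51, was not), and Acta2, smooth muscle actin (1.48 ± 0.11), which was not: it was 11.52 ± 0.22 in EMT6.5 but 8.40 ± 0.35 in 67NR, against 8.54 ± 0.26 in EO771. Of 33 endothelial genes 18 were higher and 6 lower (against 19.5% and 23.4% of all genes), among them Emcn (1.52 ± 0.13), Cd34 (1.35 ± 0.11) and the adrenomedullin receptor Calcrl (1.19 ± 0.11), while Ramp2, the partner of Calcrl, was lower (-1.05 ± 0.10).

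**Figure D3:**
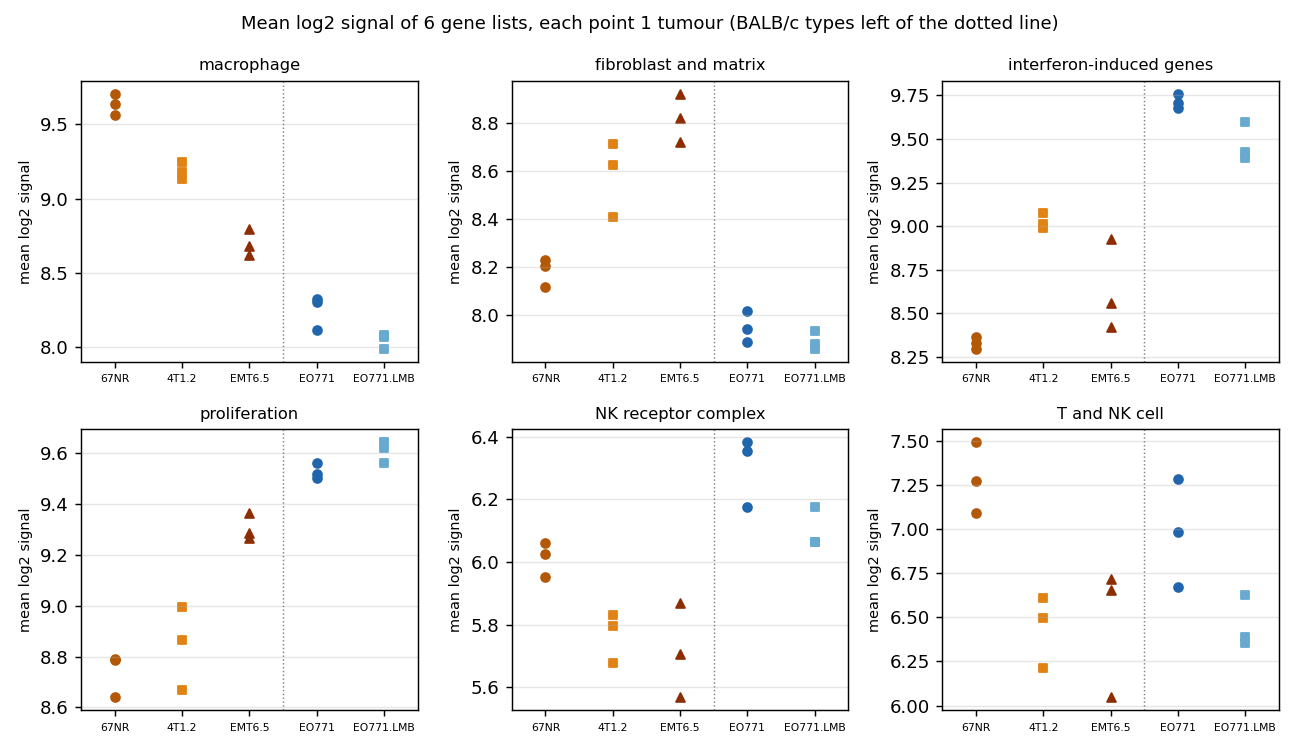
Mean log2 signal (y axis, not starting at 0) over the genes of 6 lists, each point 1 tumour, with the 3 BALB/c types left of the dotted line and the 2 C57BL/6 types right of it. The strains do not overlap for the macrophage, fibroblast and matrix, interferon-induced, proliferation and NK receptor lists, and overlap for T and NK cell genes. For NK receptors they nearly touch, with a highest BALB/c tumour of 6.062 and a lowest C57BL/6 tumour of 6.064. The BALB/c types differ among themselves in each list.

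Proliferation genes were lower in BALB/c tumours. Of 60 cell cycle and replication genes, 50 were lower (against 23.4% of all genes), 2 higher (against 19.5%) and 8 did not pass, with a median difference of -0.62, and 30 were separated lower (against 10% of all genes). Exo1, a DNA repair exonuclease, was 6.08 to 7.23 in BALB/c and 8.15 to 8.61 in C57BL/6 (-1.56 ± 0.13). Ndc80, a kinetochore protein, differed by -1.33 ± 0.10, Mybl2, a transcription factor of cycling cells, by -1.26 ± 0.09, and Uhrf1, which maintains DNA methylation, by -1.13 ± 0.13. Uhrf1 was lower in 67NR (8.22) and 4T1.2 (8.04) but 9.78 in EMT6.5, against 9.75 in EO771 and 9.87 in EO771.LMB. Mki67, which encodes the Ki-67 antigen, was the exception that separated the strains, with 10.32 to 10.90 in BALB/c and 9.56 to 9.88 in C57BL/6 (0.98 ± 0.08), and the other higher gene was Tk1, thymidine kinase (0.45 ± 0.10), both named after their values were seen. The second cluster of Tk1 did not pass (0.14, adjusted p = 0.32). The mean signal was 8.64 to 9.37 in BALB/c and 9.50 to 9.64 in C57BL/6. The median difference was -0.90 for 67NR, -0.76 for 4T1.2 and -0.24 for EMT6.5, so that EMT6.5 was nearest to C57BL/6 in this list as in the macrophage list.

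**Figure D4:**
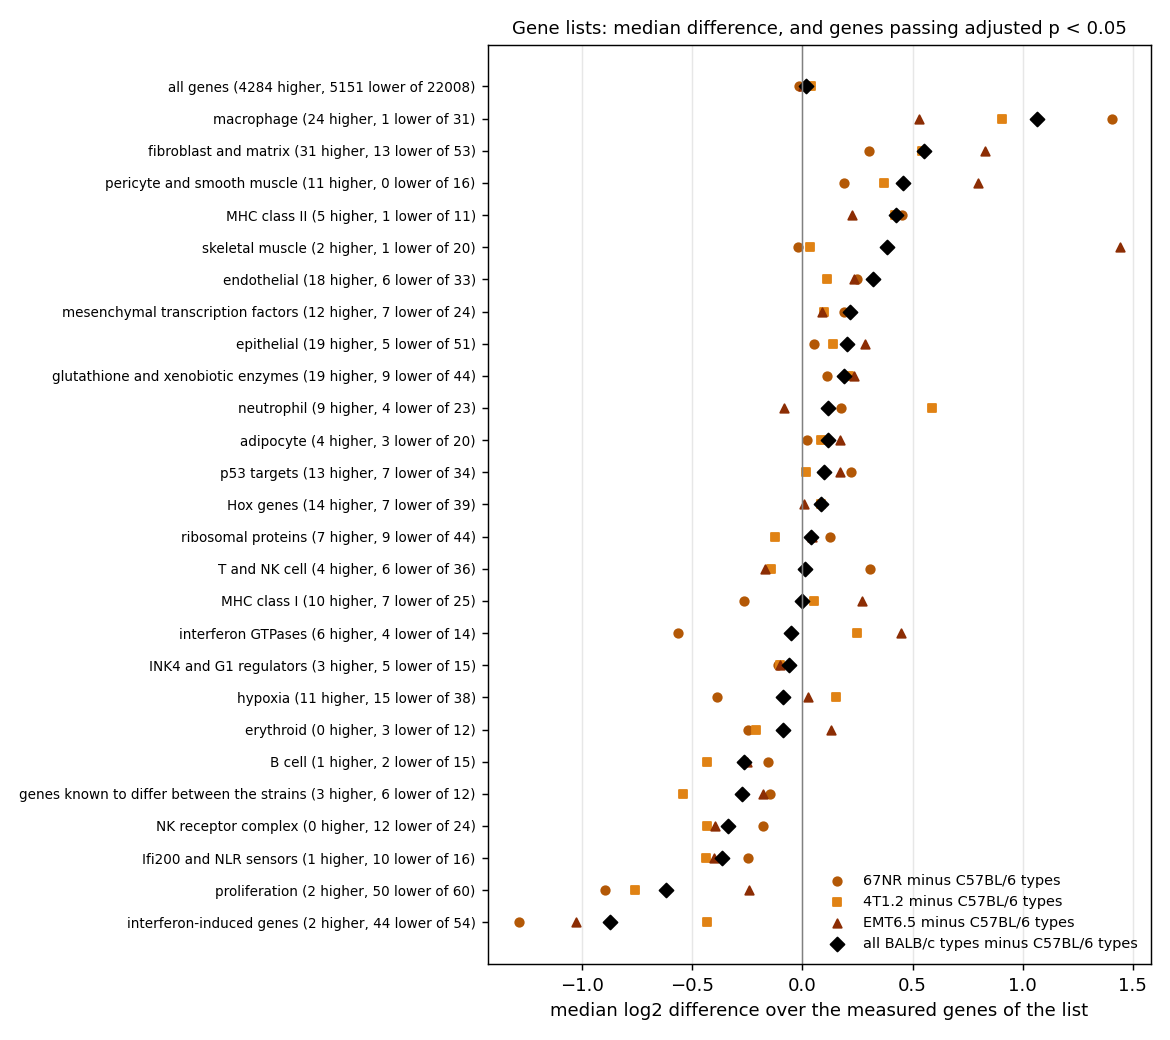
Median log2 difference (x axis) over the measured genes of each list, for all BALB/c types together (black diamonds) and for each BALB/c type against the same C57BL/6 tumours (coloured points), with the number of genes higher and lower at an adjusted p under 0.05 beside each name. The macrophage list lies farthest to the right (1.07) and the interferon-induced list farthest to the left (-0.88), against 0.02 for all genes; lists with under 10 measured genes are left out.

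Of 51 epithelial genes 19 were higher and 5 lower (against 19.5% and 23.4% of all genes), and 27 did not pass. Gata3, the luminal transcription factor, was 6.29 to 9.88 in BALB/c and 5.10 to 5.52 in C57BL/6 (3.36 ± 0.16), with 9.33 in 67NR, 9.58 in 4T1.2 and 7.08 in EMT6.5. Cd24a, a surface glycoprotein, differed by 2.86 ± 0.28 with overlapping tumours: it was 10.43 in 67NR and 9.70 in 4T1.2 but 6.91 in EMT6.5 (0.76 above C57BL/6, adjusted p = 0.17), against 6.58 in EO771 and 5.73 in EO771.LMB. The protease inhibitor Spint2 differed by 2.24 ± 0.13 and was separated. Dsp, the desmosomal protein desmoplakin, passed (1.75 ± 0.09) mainly through EMT6.5. It was 10.41 there, 5.51 in 67NR and 5.96 in 4T1.2, against 5.65 in EO771 and 5.44 in EO771.LMB. Without EMT6.5 its strain difference did not pass (0.19, limma adjusted p = 0.19), although 4T1.2 by itself was 0.42 above C57BL/6 (limma adjusted p = 0.014). The second cluster of Dsp did not pass with all types included (0.14, limma adjusted p = 0.21). Among mesenchymal transcription factors Foxc1 was higher in all 3 BALB/c types (2.33 ± 0.07), Foxd1 (2.02 ± 0.13) was high in 67NR (10.80) and near the floor in 4T1.2 and EMT6.5 (5.11 each), and Prrx1 (-2.54 ± 0.15) and Sox9 (-1.70 ± 0.11) were separated lower. Without 67NR, Foxd1 differed by 0.13 (adjusted p = 0.34).

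Hox genes, which record position along the body axis, numbered 39, of which 14 were higher and 7 lower (against 19.5% and 23.4% of all genes). Of the 39, 7 were separated higher and 4 lower (against 6.05% and 10% of all genes). All 7 that were separated higher belonged to the Hoxa cluster and all 4 separated lower to the Hoxd cluster, whereas none of Hoxb or Hoxc was separated. Hoxa5 was 7.29 to 10.27 in BALB/c and 4.77 to 5.23 in C57BL/6 (3.26 ± 0.15), Hoxa2 differed by 1.69 ± 0.11, and both were highest in 4T1.2. Hoxd10 was 5.89 to 7.04 in BALB/c and 8.89 to 9.91 in C57BL/6 (-3.03 ± 0.12), and Hoxd8 differed by -1.81 ± 0.14. Of 34 targets of the tumour suppressor p53, 13 were higher (against 19.5% of all genes) and 7 lower, which is near the 23.4% of all genes. Sesn1 (1.66 ± 0.09), Ddb2 (1.63 ± 0.09), Psrc1 (1.60 ± 0.12) and Eda2r (1.36 ± 0.08) had the largest differences, of which only Ddb2 had agreeing types (7.73 to 8.07, against 6.41 in EO771 and 6.20 in EO771.LMB). Eda2r was 7.09 in 67NR and 7.17 in EMT6.5 but 5.24 in 4T1.2, against 5.10 in EO771 and 5.18 in EO771.LMB.

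Of 44 genes of glutathione and xenobiotic metabolism, 19 were higher (against 19.5% of all genes) and 9 lower, which is near the 23.4% of all genes. Gsta4, a glutathione transferase that clears lipid aldehydes, was 8.44 to 11.55 in BALB/c and 5.38 to 5.81 in C57BL/6 (4.34 ± 0.10), and its level ran from 8.67 in 67NR through 9.63 in 4T1.2 to 11.40 in EMT6.5. Gstm2 (3.14 ± 0.14) and Gstm1 (2.51 ± 0.13), adjacent members of the mu class, were separated and highest in 67NR. Ephx1, the microsomal epoxide hydrolase (2.71 ± 0.11), was not separated, since 4T1.2 (6.72 ± 0.21) overlapped EO771 (6.24 ± 0.42). The hypoxia list (11 of 38 higher, 15 lower, median -0.09), the G1 regulators (3 of 15 higher, 5 lower) and the ribosomal protein genes (7 of 44 higher, 9 lower) had no common direction, against 19.5% of all genes higher and 23.4% lower.

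Separated genes lay next to one another on the chromosome in places. Among 20540 genes placed by RefSeq, 17 runs of at least 3 adjacent measured genes were higher in BALB/c (55 genes) and 83 runs were lower (285 genes). Over all genes, 6.05% were separated higher and 10% lower. How many runs those shares alone would give was not tested. The longest held 9 genes of the Rhox cluster on X, from Rhox4a to EG622311, with differences of -5.37 to -0.50. Others of 5 or 6 genes were pheromone receptor genes on chromosome 13 (V1rh9 to V1rh6, -2.13 to -0.45), the Ifi200 neighbours on chromosome 1 (Aim2 to Pyhin1, -4.64 to -1.41), Ly6e to Ly6c2 on chromosome 15 (-2.54 to -0.88) and Ifit2 to Ifit1 on chromosome 19 (-2.93 to -1.06). These are families of near copies, whose probes may read one another's transcripts. Hoxa5 to Hoxa10 on chromosome 6 was a run of 5 genes higher in BALB/c (0.76 to 3.26). Further runs held genes with no shared family: 5 genes around Fgfr1op2 on chromosome 6 (-2.85 to -0.95), St3gal4 to Srpr (-1.80 to -1.22) and Zbtb44 to Nfrkb (-1.65 to -0.74) on chromosome 9, Ddef2 to Adam17 on chromosome 12 (-1.14 to -0.62), and, higher in BALB/c, Wipf3 to 2410066E13Rik on chromosome 6 (0.30 to 3.11).

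The share of separated genes varied by chromosome. Genes lower in BALB/c made up 17.6% of the 998 genes measured on chromosome 8 and 14.7% of 1139 on chromosome 6, but 5.45% of 954 on chromosome 10 and 5.49% of 747 on chromosome 14. Genes higher in BALB/c ran from 3.91% on chromosome 8 to 9.25% on chromosome 12. DNA copy number of the lines was not measured in these files, and its part in the runs and shares was not tested.

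**Figure D5:**
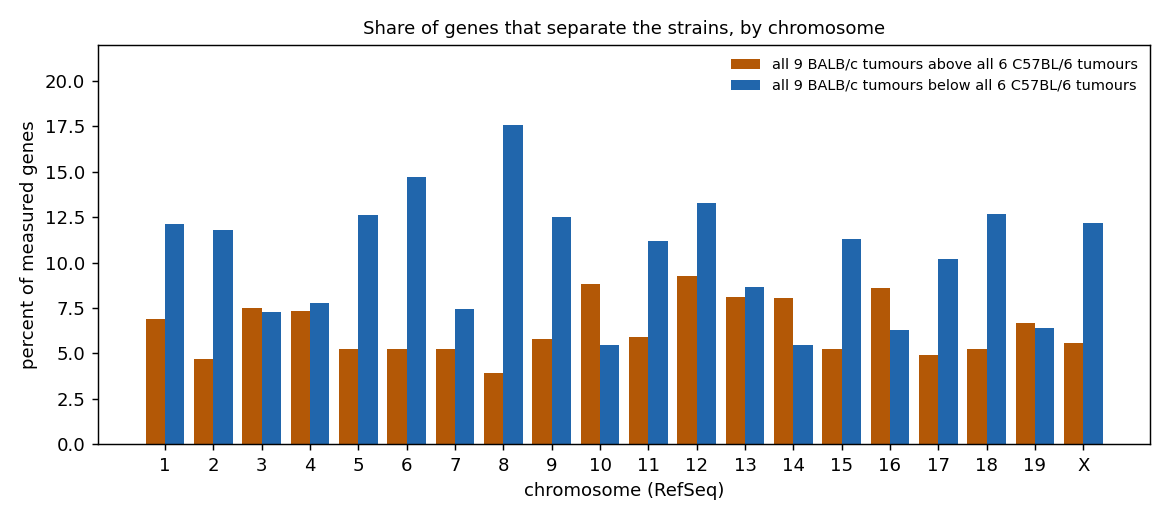
Percent of the measured genes of each chromosome (y axis) for which all 9 BALB/c tumours lie above, or below, all 6 C57BL/6 tumours. Chromosome 8 has the highest share of genes lower in BALB/c (17.6%) and the lowest share of genes higher (3.91%).

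The adjusted p-values above rest on the spread between tumours of a type and compare these lines. With the 5 type means as units, 495 genes were higher (2.25%) and 1017 lower (4.62%) in limma, and 470 of the 1332 and 974 of the 2204 separated genes were among them. With type as a random block the shares were 9.36% and 14.1%. With the 5 type means as units, H2-Ea (limma adjusted p = 1.6e-04), Fn1 (6.1e-04), Rhox2a (1.6e-04), Dkk2 (6.1e-04), Ereg (0.0012), Ifit1 (0.0037) and Cx3cr1 (0.0046) passed. In that fit Cd163 (0.089), Gata3 (0.077), Ogn (0.076) and Edil3 (0.22) did not. With type as a random block these last genes passed (limma adjusted p = 2.2e-04, 1.1e-04, 4.0e-05 and 0.0040). An exact permutation test over 3 against 2 types has 10 arrangements and cannot give a two-sided p below 0.1, the value that H2-Ea, Rhox2a and Ifit1 reached.

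The strain difference also depended on tumour behaviour for 2385 genes (10.8%), by the signed strain difference of the metastatic types minus that of the non-metastatic types, which was above 0 for 5.48% of all genes and below 0 for 5.36%. The sign gives no size: for a gene lower in BALB/c, a value above 0 is a smaller difference with the metastatic types. Among separated genes with agreeing BALB/c types it did so for 17 of the 651 higher and 31 of the 1434 lower. Agreement by definition keeps the BALB/c part of the behaviour contrast within 0.5. The counts for agreeing genes were thus limited by the selection, and they cannot be set against the 10.8% of all genes. EO771.LMB differed from EO771 for 1 of the separated genes higher in BALB/c and 1 of those lower. The share over all genes is not given for this contrast, so these counts stand as a description. With 1 or 2 lines on each side, behaviour and line cannot be told apart here either.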

How the data were processed

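Biotin-labelled cDNA from total RNA of 15 whole tumours was measured on Affymetrix Mouse Gene 1.0 ST arrays. The deposited values are log2 signals per transcript cluster, made with GCRMA according to the authors' methods, whereas Partek 6.6 and RMA stand in the processing notes of the submitters. Quantile normalisation forces arrays to a like distribution, so a shift of most genes would be reduced. The genome build and the annotation release are not given in the sources used here. The first sheet of a deposited workbook held the same log2 values (0 of 533340 differed) and gave the gene names. Another 30 columns of per-sample values were not used.

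The 35556 clusters were fitted with limma 3.58.1 in R 4.3.3, with tumour type as the only term, Benjamini-Hochberg adjustment over all clusters and a threshold of 0.05. Types were weighted equally within a strain, and tests were two-sided. The brightest of a gene's clusters stood for each of 22008 gene symbols, of which 1857 had several, and 20587 were matched to RefSeq (GRCm38.p6). No filter on low signal was set. Separation means that all 9 tumours lie beyond all 6, and agreement that the 3 BALB/c type means lie within 0.5. Counts within lists are a description with no test of the list.

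The genes named were, per direction, the 12 separated genes with agreeing types and the largest difference, the 4 next largest whatever the agreement, the 4 with the widest spread among BALB/c types, up to 4 members of each of 27 gene lists, all known strain differences, and runs of at least 3 neighbours. The comparison, members and lists were chosen with earlier results of these data known. The number of arrays limits precision. The functions were tested on simulated data. The replicate numbers count mice within a type, and the alternatives were another scaling, filter, variance model and unit of replication, the mouse number as a block, and each tumour and type left out.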

Additional observations from a re-analysis of the deposited data

Results flagged for a closer look

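Among 280 groups of tumours (113 named genes and 27 list means, each in 9 BALB/c and 6 C57BL/6 tumours), 7 had 1 tumour far from the rest by Dixon's ratio. Chance alone gives about 1 group in 20 where all tumours of a group come from 1 normal distribution. Each group here pools 3 BALB/c or 2 C57BL/6 types, so that rate is only a rough guide. EO771.LMB tumour 3 was lowest for Cd163 (5.04 against 5.71 to 5.99 in the other 5; ratio 0.706), Cx3cr1 (5.75 against 6.15 to 6.28; 0.768) and H28 (5.14 against 5.55 to 5.69; 0.741). EO771 tumour 2 was highest for Ddb2 (6.73 against 6.12 to 6.31; 0.698) and Ephx1 (6.73 against 5.71 to 6.03; 0.688). EO771.LMB tumour 2 was highest for Ndc80 (10.49 against 10.11 to 10.25; 0.635), and 4T1.2 tumour 1 was highest for Dkk2 (6.84 against 5.88 to 6.36; 0.50). Of these genes only Ephx1 did not separate the strains.

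For 45 of the 113 named genes the strain difference itself differed between the metastatic types (4T1.2 and EMT6.5 minus EO771.LMB) and the non-metastatic types (67NR minus EO771), in limma at an adjusted p under 0.05, against 10.8% of all genes. The values are the signed difference of the metastatic types minus that of the non-metastatic types, in log2 units. Among genes higher in BALB/c it was above 0 for 16: Edil3 (3.49), Lcn2 (3.05), Dsp (2.88), Acta2 (2.57), H2-gs10 (2.29), Gbp1 (1.87), Gsta4 (1.81), Ifitm1 (1.67), H2-Q6 (1.54), H2-DMa (1.25), Spint2 (1.23), Cp (1.21), Hoxa2 (1.11), Phldb2 (0.81), Prkar2b (0.80) and Mcam (0.67). It was below 0 for 16 others higher in BALB/c: Foxd1 (-5.67), Eya1 (-3.21), Sema5a (-3.08), Pcdh18 (-2.49), Ogn (-2.46), Ephx1 (-1.90), Cd163 (-1.51), Gstm2 (-1.46), Sesn1 (-1.46), Psrc1 (-1.45), Gstm1 (-1.02), Eda2r (-0.97), Foxc1 (-0.80), Nnt (-0.75), Rgs5 (-0.71) and Ankrd1 (-0.68). Among genes lower in BALB/c a value above 0 is a smaller strain difference with the metastatic types, and this held for 10: Ociad2 (3.86), Ass1 (3.57), Morc1 (2.13), Col6a3 (1.84), Ly6a (1.77), Ly6c1 (0.92), Raet1d (0.82), Ly6c2 (0.74), H2-K1 (0.61) and H2-D1 (0.57). Ass1, for example, differed by -0.86 with the metastatic types and by -4.43 with the non-metastatic types. It was below 0 for 3 genes lower in BALB/c: ENSMUSG00000073019 (-3.13), Hoxd8 (-1.17) and Aim2 (-1.01). Edil3, Eya1, Sema5a, Pcdh18, Ociad2, Ass1 and Morc1 were named because the BALB/c types differ, and the other genes on other grounds. Each side of the contrast holds 1 or 2 lines, so behaviour and line cannot be told apart.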

How the results depend on the processing

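Counts of genes higher and lower in BALB/c (4284 and 5151) kept within 1.5 times under quantile normalisation (4134 and 5220), arrays centred on their median (3463 and 6034), unmoderated variance, a trended robust prior, the mean of a gene's clusters, clusters with a symbol, the workbook's values and each type left out. With tumour type as a random block they were 2061 and 3102, and with the 5 types as units 495 and 1017. Among clusters above the median signal, which tests fewer genes, 2751 were higher. Leaving out each tumour gave 3913 to 4235 higher and 4776 to 5142 lower, 1377 to 1460 separated higher and 2242 to 2395 separated lower, 668 to 726 and 1425 to 1565 with agreeing types, and 1856 to 2343 genes that depended on behaviour. A gap of 0.5 left 382 and 586 separated genes. The agreeing genes (651 and 1434) became 281 and 781 with the 5 types as units, 310 and 677 at a limit of 0.25, 1030 higher at a limit of 1.0, and, with only 2 BALB/c types left to agree, 1381 and 2201 without 67NR, 1231 and 2229 without 4T1.2, and 1395 and 2484 without EMT6.5.

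With the mouse number as a replicate block, 4241 genes were higher and 5087 lower, and no named gene changed its call. Deviations of same-numbered tumours of different types correlated at r = -0.17 to 0.15 (median 0.02, 4 of 30 pairs over 0.1). Other pairs ran from -0.16 to 0.21 (median -0.0014, 5 of 60 over 0.1). No pairing by number is seen in these values, but a small shared effect could be missed.

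Of 113 named genes 110 passed, and 44 of these lost the call with the 5 types as units and 8 with type as a random block, in the same direction. Cdkn2a, which did not pass, changed sign with centring (-0.058), without EMT6.5 (-0.074), without EO771.LMB (-0.095) and in 6 of the fits without 1 tumour, which ranged from -0.034 to 0.065. Cd72 lost its call without 4T1.2 tumour 2, 67NR tumour 3, EMT6.5 tumour 1 or 3, EO771 tumour 2 or EO771.LMB tumour 1 (adjusted p up to 0.084) and with centring (0.070), and Hbb-b1 gained one without EMT6.5 tumour 1 (-0.82, adjusted p = 0.021) and without EMT6.5 (-1.02). Calls were also lost by Cd72 without 4T1.2, 67NR or EO771, Prkdc without 4T1.2 or EO771, Klrb1c without EO771 or EO771.LMB, Tk1 without EO771, Dsp without EMT6.5 and Foxd1 without 67NR. The medians of the MHC class II list (0.43) and the adipocyte list (0.11) turned to -0.12 and -0.18 without EO771.LMB, and the macrophage median fell to 0.72 without 67NR, against 1.07. Signals near the floor limit every contrast: 301 of the 2204 genes lower in BALB/c were under 6 in all BALB/c tumours, and 369 of the 1332 higher were under 6 in all C57BL/6 tumours. The cause of none of these changes was tested.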
